A study of Mus musculus with 14 samples.

Results

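Bcl6 and Blimp-1 are transcriptional repressors of lymphocytes that are known to hold each other in check. They are encoded in the mouse by Bcl6 and Prdm1, and the account below covers the transcripts of these 2 genes out of the 27179 genes in the deposited table. They were picked out by their Entrez gene identifiers, and the choice was made with earlier results of these data known. Bcl6 is required in CD4 T cells for the follicular helper (Tfh) fate, in which T cells support B cells inside germinal centres, and it acts by recruiting corepressors to DNA. Blimp-1 is best known for driving plasma cell differentiation, and in CD4 T cells it opposes the Tfh fate and is induced by interleukin-2 signalling. Each is reported to repress the gene of the other, so high Bcl6 usually goes with low Blimp-1 in the literature.

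The series compared CD4 T cells of C57BL/6 mice that started as naive cells and were cultured for 3.5 days on plate-bound antibodies to CD3 and CD28. Tfh5 cells (5 libraries) were cultured toward Tfh cells with 5 ng/ml of the cytokine TGF-β. TfhA cells (4 libraries, numbered 1, 2, 4 and 5) were cultured toward Tfh cells with anti-TGF-β, which blocks that cytokine. Th1 cells (5 libraries) were cultured toward the interferon-γ-producing helper type. All groups share the strain, the activation and the sort by flow cytometry, and the rest of each culture's cytokines and antibodies is not stated in the labels. The labels do not say either if replicates were different mice or wells, so p-values measure only the spread between these samples.

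Counts per library ran from 8805921 to 16108059, and correlations of log2 expression were 0.97 to 0.991 within groups and 0.834 to 0.943 between them. Of 8 CD4 T cell markers, all 8 were tested, and their summed level was 6835 to 7248 CPM in Tfh5, 4844 to 5637 CPM in TfhA and 4417 to 4762 CPM in Th1, where CPM is the usual scaling of counts to library size, adjusted by the trimmed mean of M-values (TMM). Since the RNA is bulk, fewer cells with a transcript and less of it per cell cannot be told apart. B cells and plasma cells also express Bcl6 and Prdm1. Of 8 B cell markers 6 could be tested, and their sum was 0.971 to 3.05 CPM in Tfh5, 21.8 to 31.7 CPM in TfhA and 27.3 to 35.1 CPM in Th1, mostly from Ebf1. The defining B cell gene Ms4a1 had 1 count over all Tfh5 libraries, 63 over TfhA and 1 over Th1. Of 5 plasma cell markers 4 could be tested, and their sum, mostly Xbp1, was 357 to 439 CPM in Tfh5, 266 to 368 CPM in TfhA and 442 to 493 CPM in Th1. Sdc1, which encodes syndecan-1, had 1698 counts over Tfh5, 229 over TfhA and 112 over Th1. Between Tfh5 and TfhA it ran opposite to Jchain and Mzb1, but like them it was higher in TfhA than in Th1. Jchain had 9, 100 and 5 counts and Mzb1 had 0, 76 and 5 counts in Tfh5, TfhA and Th1, and Tnfrsf17 had 0 in every library. Of 8 myeloid markers 2 could be tested, and their sum was 1.33 to 2.75 CPM in Tfh5, 3.82 to 7.47 CPM in TfhA and 1.25 to 2.36 CPM in Th1. Of 6 CD8 T and NK cell markers 3 could be tested, with sums of 66.6 to 112 CPM in Tfh5, 62.5 to 90.8 CPM in TfhA and 56.4 to 98.7 CPM in Th1. Sums cover all markers of a list, tested or not. The 3 tested differed in direction. In Tfh5, TfhA and Th1, means were 0.916, 23.1 and 40.9 CPM for Klrk1 and 73.4, 40.3 and 16.6 CPM for Klrd1. Cd8b1 had 12.9, 10.7 and 17.8 CPM. The part of such cells in the results below was not tested.

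Bcl6 lies on mm10 chromosome 16, 23965050 to 23988866, and Prdm1 on chromosome 10, 44437174 to 44528558, both on the minus strand in the RefSeq annotation of GRCm38.p6. At its 5′ end Bcl6 overlaps the lncRNA Gm31527 over 600 bases. Whether counting used strand is not stated, so reads of the overlap cannot be assigned to either gene with certainty. Promoter windows of 300 bases that end shortly after an annotated start are shown because the proteins are reported to act on each other's genes and because the transcripts moved in opposite directions. Capitals mark each match, on either strand, to GAAAG (the core of the Blimp-1 motif), TTCNNNGAA (the palindrome shared by STAT and Bcl6 motifs, which includes the Bcl6 consensus TTCCTAGAA), CTTTGA (a TCF core) or TGCTGA (a Maf recognition core).
Bcl6, first start, chr16:23988803-23989102, minus strand: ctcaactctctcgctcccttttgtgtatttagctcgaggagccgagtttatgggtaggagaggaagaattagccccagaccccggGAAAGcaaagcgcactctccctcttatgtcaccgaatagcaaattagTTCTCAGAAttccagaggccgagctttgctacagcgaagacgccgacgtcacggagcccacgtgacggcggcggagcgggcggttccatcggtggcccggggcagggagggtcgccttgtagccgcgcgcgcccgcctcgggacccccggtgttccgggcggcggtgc
Bcl6, second start, chr16:23981234-23981533, minus strand: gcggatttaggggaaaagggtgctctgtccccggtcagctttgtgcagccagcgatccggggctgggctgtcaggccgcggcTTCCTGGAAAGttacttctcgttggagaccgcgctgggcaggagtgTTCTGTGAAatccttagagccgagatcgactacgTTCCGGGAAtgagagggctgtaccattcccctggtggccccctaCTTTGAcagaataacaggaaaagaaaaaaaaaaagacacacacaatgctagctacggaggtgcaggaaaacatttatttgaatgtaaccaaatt
Prdm1, chr10:44458699-44458998, minus strand: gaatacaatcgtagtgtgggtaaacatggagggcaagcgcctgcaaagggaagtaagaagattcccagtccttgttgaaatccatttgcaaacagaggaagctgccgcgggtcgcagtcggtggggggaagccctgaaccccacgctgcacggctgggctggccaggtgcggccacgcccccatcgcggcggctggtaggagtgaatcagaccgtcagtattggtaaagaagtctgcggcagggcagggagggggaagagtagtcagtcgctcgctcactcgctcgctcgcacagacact

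The first Bcl6 window holds GAAAG at -165 and TTCTCAGAA at -118, counted from the start site. The second holds 3 palindromes, TTCCTGGAA at -168, TTCTGTGAA at -122 and TTCCGGGAA at -88, with GAAAG at -162 overlapping the first of them and CTTTGA at -44. None of these letters occurs in the Prdm1 window, which says nothing of binding elsewhere at the gene. The Prdm1 window is not at the outer 5′ end of the annotated span but at a start inside it, and the outermost start was not analysed here. Of 32851 promoter windows in the RefSeq table, 57.3% hold GAAAG, 8.3% hold TTCNNNGAA, 0.411% hold TTCCTAGAA, 16% hold CTTTGA and 19.5% hold TGCTGA. At least 3 palindromes occur in 11 windows (0.0335%), a count made after the matches had been seen. A match is a description of the letters and not evidence of a bound site.

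Bcl6 transcript was high in Tfh5 alone, while Prdm1 transcript was high in Th1, low in TfhA and nearly undetected in Tfh5. Bcl6 had 79.1, 115, 106, 102 and 123 CPM in Tfh5 replicates 1 to 5. It had 18.8, 22.3, 11.5 and 12.8 CPM in TfhA replicates 1, 2, 4 and 5, and 10.5, 17, 12.6, 11.7 and 9.82 CPM in Th1 replicates 1 to 5. All Tfh5 libraries lay above all others, whereas TfhA and Th1 overlapped, with Th1 replicate 2 above TfhA replicates 4 and 5. Group means were 105 ± 16.6 CPM in Tfh5, 16.3 ± 5.07 CPM in TfhA and 12.3 ± 2.83 CPM in Th1 (SD, n = 5, 4 and 5, as in all group means below).

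Prdm1 had 0, 0.102, 0.189, 0.285 and 0.0747 CPM in Tfh5 replicates 1 to 5. It had 4.55, 3.41, 4.55 and 2.55 CPM in TfhA replicates 1, 2, 4 and 5. In Th1 replicates 1 to 5 it had 36.6, 46.5, 45.7, 43.6 and 37.4 CPM. The groups did not overlap in any pairing. The Tfh5 values rest on 7 counts over 5 libraries, with 1 library at 0, against 166 counts over TfhA and 2982 over Th1, so the Tfh5 level is near the limit of detection at this depth. Group means were 0.13 ± 0.11 CPM in Tfh5, 3.76 ± 0.971 CPM in TfhA and 42 ± 4.66 CPM in Th1.

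**Figure D1:**
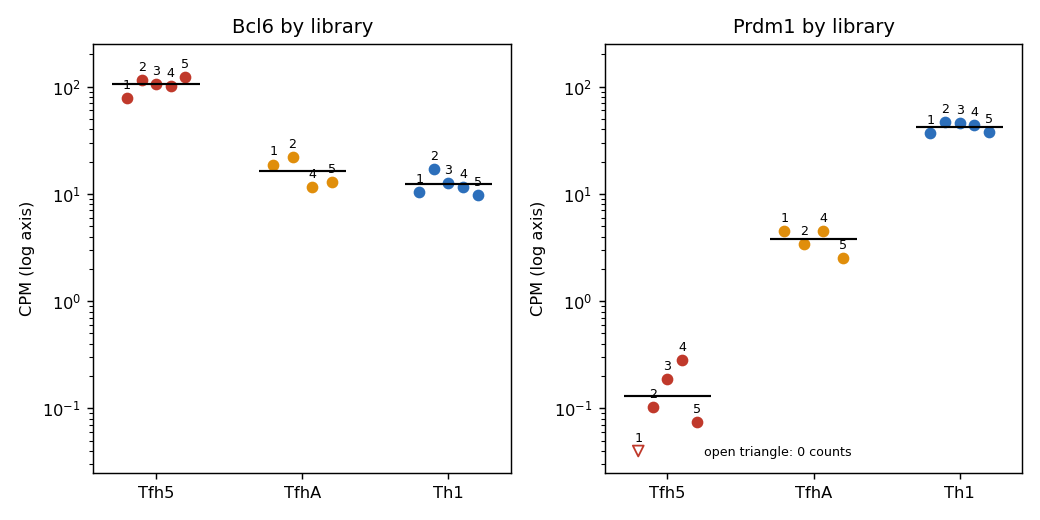
CPM of Bcl6 (left) and Prdm1 (right) in each library on a log axis, with replicate numbers beside the points, a line at each group mean and an open triangle for the Tfh5 library with 0 Prdm1 counts. Bcl6 is set apart in Tfh5 only (79.1 to 123 CPM), and Prdm1 separates all 3 groups.

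Per kilobase of exon the members can be set against each other. Bcl6 had 29.8 ± 4.71 CPM per kb in Tfh5, 4.64 ± 1.44 in TfhA and 3.49 ± 0.801 in Th1, and Prdm1 had 0.0242 ± 0.0204, 0.701 ± 0.181 and 7.82 ± 0.868 CPM per kb in the same groups. Bcl6 was thus the more abundant transcript in both Tfh cultures and Prdm1 in Th1. The log2 ratio of Bcl6 to Prdm1 CPM, with 0.5 CPM added to each, was 7.02 to 7.74 in Tfh5 (median 7.32), 1.25 to 2.54 in TfhA (median 2.03) and -1.88 to -1.42 in Th1 (median -1.83). The sign of the ratio was the same in every library of a group, and the groups did not overlap. The libraries fall into 3 separate clusters, and no group has the 6 libraries needed to test a relation between the members within it.

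The comparison of Tfh5 with TfhA sets a Tfh culture with TGF-β against one with its blockade. Whether these cultures differed in anything else is not stated in the labels. Bcl6 rose 6.36-fold in Tfh5 (log2 fold change 2.67 ± 0.18 SE, 95% confidence interval 2.29 to 3.05, edgeR quasi-likelihood test with Benjamini-Hochberg adjustment, adjusted p = 5.06e-12). Prdm1 fell 27.5-fold (log2 fold change -4.78 ± 0.37, interval -5.54 to -4.03, adjusted p = 4.21e-11). Both members passed, in a comparison in which 57.5% of 13075 tested genes passed (27.4% higher and 30.1% lower), so passing by itself does not set them apart. By size, 337 tested genes rose at least as far as Bcl6 and 144 fell at least as far as Prdm1, each member included. The groups did not overlap for either member, as for 44.2% of tested genes.

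TfhA against Th1 sets the Tfh culture with TGF-β blocked against a Th1 culture. Prdm1 was 11.1-fold lower in TfhA (log2 fold change -3.47 ± 0.19, interval -3.85 to -3.08, edgeR adjusted p = 2.02e-13), one of 119 tested genes lower by that much. Bcl6 did not pass (log2 fold change 0.42 ± 0.18, 95% interval without adjustment 0.05 to 0.80, edgeR adjusted p = 0.061). Here 44.8% of tested genes passed (23.2% higher and 21.6% lower) and 38.1% did not overlap. The Bcl6 result sat at the threshold: it passed without Th1 replicate 2 (adjusted p = 0.0138), TfhA replicate 4 (0.0181), TfhA replicate 5 (0.032) or Tfh5 replicate 1 (0.0471). Its adjusted p ran from 0.0138 to 0.315 over all alternatives, with a log2 fold change of 0.24 to 0.56, so whether Bcl6 differed between TfhA and Th1 was not settled by these libraries.

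Tfh5 against Th1 spans both steps and shares its libraries with the other comparisons. Bcl6 was 8.53-fold higher in Tfh5 (log2 fold change 3.09 ± 0.17, edgeR adjusted p = 3.55e-14), and Prdm1 was 304-fold lower (log2 fold change -8.25 ± 0.28, interval -8.82 to -7.68, adjusted p = 2.05e-18). Only 36 of 13075 tested genes were lower by as much as Prdm1, itself included, where 64.6% of genes passed (31.5% higher and 33% lower) and 50.2% did not overlap. The fold of Prdm1 depends on the 7 Tfh5 counts, and its interval carries that uncertainty only as the model does.

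Whether the members changed by equal amounts over the steps was tested as a contrast, the log2 change of Tfh5 over TfhA minus that of TfhA over Th1. For Bcl6 this difference was 2.25 ± 0.33 (interval 1.57 to 2.92, edgeR adjusted p = 3.73e-06, where 46.2% of tested genes passed, 21.5% with a positive and 24.8% with a negative difference), so the Bcl6 change over the TGF-β step exceeded that between TfhA and Th1. For Prdm1 it was -1.31 ± 0.54 (interval -2.42 to -0.20, adjusted p = 0.0485), and this call was lost in 16 of 19 alternatives, 11 of them the omission of a single library (adjusted p up to 0.132). Omission of any Th1 library lost it, as did omission of TfhA replicates 1, 2 or 4 or Tfh5 replicates 1, 2 or 5. A different size of the Prdm1 change over the 2 steps was therefore not established.

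**Figure D2:**
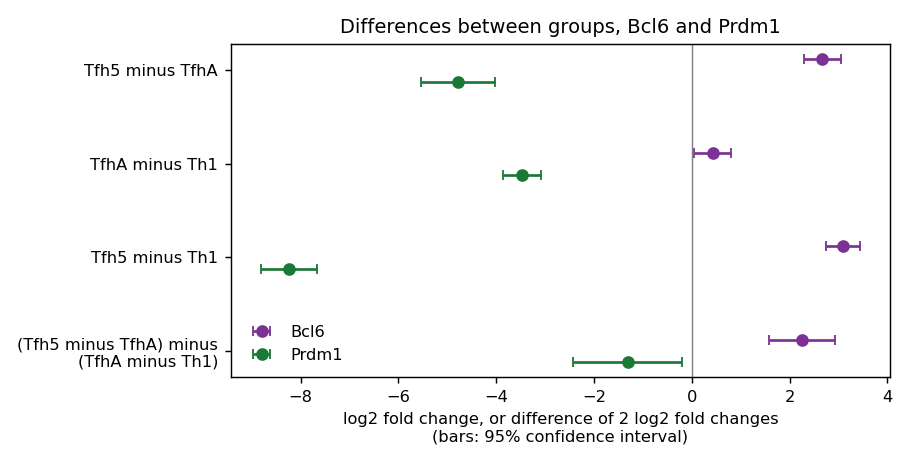
Log2 fold changes of Bcl6 and Prdm1 in the 3 comparisons and, in the lowest row, the difference between the first 2 of them, with bars for the 95% confidence interval of the fit. The Bcl6 value is 2.67 for Tfh5 minus TfhA and 0.42 for TfhA minus Th1, and the Prdm1 values are -4.78 and -3.47.

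Bcl6 works through corepressors, and 11 of 17 listed corepressors and cofactors were higher in Tfh5 than in TfhA, but 8 when set against Th1. Of 17 corepressors and cofactors, all tested, 11 rose in Tfh5 over TfhA, 1 fell and 5 did not pass, where 27.4% of all tested genes rose and 30.1% fell. The median log2 fold change was 0.55 against -0.01 over all tested genes. Mta3, a subunit of the NuRD complex that binds Bcl6, was 2.23-fold higher (150 ± 8.14 against 67.1 ± 4.08 CPM). Ncor1 was 1.75-fold higher (800.2 ± 135 against 458 ± 7.49 CPM) and Bcor, which binds the BTB domain of Bcl6, 1.61-fold (230.1 ± 27.4 against 143 ± 15.4 CPM). Fbxo11, the ubiquitin ligase subunit that targets human BCL6 for degradation, is counted among the 11 and was 1.91-fold higher. The corepressor Sin3a was 1.33-fold lower, and 2 of the list were lower without Tfh5 replicate 4. As each library was left out, 9 to 11 of the list were higher in Tfh5 than in TfhA. Hdac3, the deacetylase of the NCoR complex, had 152 ± 4.06 and 147 ± 10.7 CPM in Tfh5 and TfhA (log2 fold change 0.04 ± 0.09) and did not pass. Between TfhA and Th1, 3 of the 17 were higher, 4 lower and 10 did not pass (median -0.07 against 0.03 over all genes, of which 23.2% were higher and 21.6% lower). Those that passed included Tbl1xr1, another NCoR subunit, 2.13-fold higher, and Bcorl1, the relative of Bcor, 2.44-fold lower in TfhA. Without TfhA replicate 5 only 1 was higher. Between Tfh5 and Th1, 8 were higher, 3 lower and 6 did not pass (median 0.37 against -0.01 over all genes). Of all tested genes 31.5% were higher and 33% lower there. Only the share that passed in either direction was close to the 64.6% of all tested genes.

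The cofactors through which Blimp-1 represses were split. Of 9, 4 rose, 3 fell and 2 did not pass in Tfh5 over TfhA, with a median of 0.20, where 57.5% of all tested genes passed. The Groucho corepressor Tle1 was 13.7-fold higher in Tfh5 (31.2 ± 5.07 against 2.21 ± 0.856 CPM) and Tle4 3.26-fold, and the demethylase Kdm1a 1.42-fold. The methyltransferases Ezh2 (2.55-fold) and Prmt5 (1.72-fold) were lower in Tfh5. Against Th1, TfhA had 3 higher and 3 lower members, with Tle1 4.07-fold lower and Ezh2 1.79-fold higher, and Tfh5 had 3 higher and 4 lower, where 44.8% and 64.6% of all tested genes passed in these comparisons.

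Of 14 genes reported to induce Bcl6, 8 rose, 2 fell and 4 did not pass in Tfh5 over TfhA (median 0.45), against 27.4% of all tested genes higher and 30.1% lower. Maf, which encodes the transcription factor c-Maf, was 44.8-fold higher (1419 ± 153 against 31.7 ± 3.03 CPM), Tox2 8.51-fold and Il6st, the signalling chain of the interleukin-6 receptor, 5.41-fold. Pou2af1, a coactivator of octamer factors, was 3.75-fold higher, and Tcf7, whose product TCF-1 is reported to raise Bcl6 and lower Prdm1, 3.16-fold. Stat3, which carries interleukin-6 and interleukin-21 signals, was 1.47-fold higher and Irf4, a factor of activated lymphocytes, 2.2-fold. The 2 that fell were Il21r, the interleukin-21 receptor (2.22-fold), and the costimulator Icos (1.7-fold).

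Between TfhA and Th1, where Bcl6 did not pass, 6 of these inducers were higher, 4 lower and 4 did not pass (median 0.10), against 23.2% higher and 21.6% lower over all tested genes. Pou2af1 was 71.6-fold higher in TfhA (108 ± 29.5 against 1.53 ± 0.767 CPM), Tox2 33.9-fold (2.7 ± 0.934 against 0.0693 ± 0.0493 CPM), Tcf7 5.33-fold and Il6ra, the ligand-binding chain of the interleukin-6 receptor, 2.41-fold. Irf4 was 2.19-fold lower in TfhA, and its levels were 2224 ± 69.6 CPM in Tfh5, 1011 ± 92.1 CPM in TfhA and 2212 ± 104 CPM in Th1. In Tfh5 against Th1, where 31.5% of all tested genes were higher and 33.0% lower, 8 of 14 were higher and 5 lower, or 3 lower without Th1 replicate 3, Th1 replicate 5 or Tfh5 replicate 4.

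The 12 genes reported to oppose Bcl6 or to induce Prdm1 moved both ways in Tfh5 over TfhA, with 5 higher, 6 lower and 1 that did not pass (median -0.06), against 27.4% higher and 30.1% lower over all tested genes. Tbx21, which encodes T-bet, was 32.6-fold lower (1.9 ± 0.424 against 61.6 ± 7.06 CPM) and Runx3, a Th1 partner of T-bet, 1.76-fold. The interleukin-2 receptor chain Il2ra was 1.43-fold lower, and Stat5a, which carries its signal, 1.24-fold, while Stat5b was 2.19-fold higher. Foxo1, reported to repress Bcl6, was 3.11-fold higher in Tfh5 (635 ± 23.4 against 204 ± 11.2 CPM), and Klf2, reported to induce Prdm1, 1.85-fold. In TfhA against Th1, 4 were higher, 6 lower and 2 did not pass (median -0.38), against 23.2% higher and 21.6% lower. Klf2 was 11-fold higher in TfhA (97.4 ± 11.2 against 8.82 ± 0.9 CPM), opposite to Prdm1, and Id2, an inhibitor of E proteins, 1.97-fold higher. Il2ra (2.81-fold), Il2rb (2.52-fold), Runx3 (3.13-fold), Tbx21 (3.96-fold) and both Stat5a (1.45-fold) and Stat5b (1.89-fold) were lower with Prdm1 in TfhA. Tfh5 against Th1 gave 5 higher and 5 lower, where 64.6% of all tested genes passed.

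**Figure D3:**
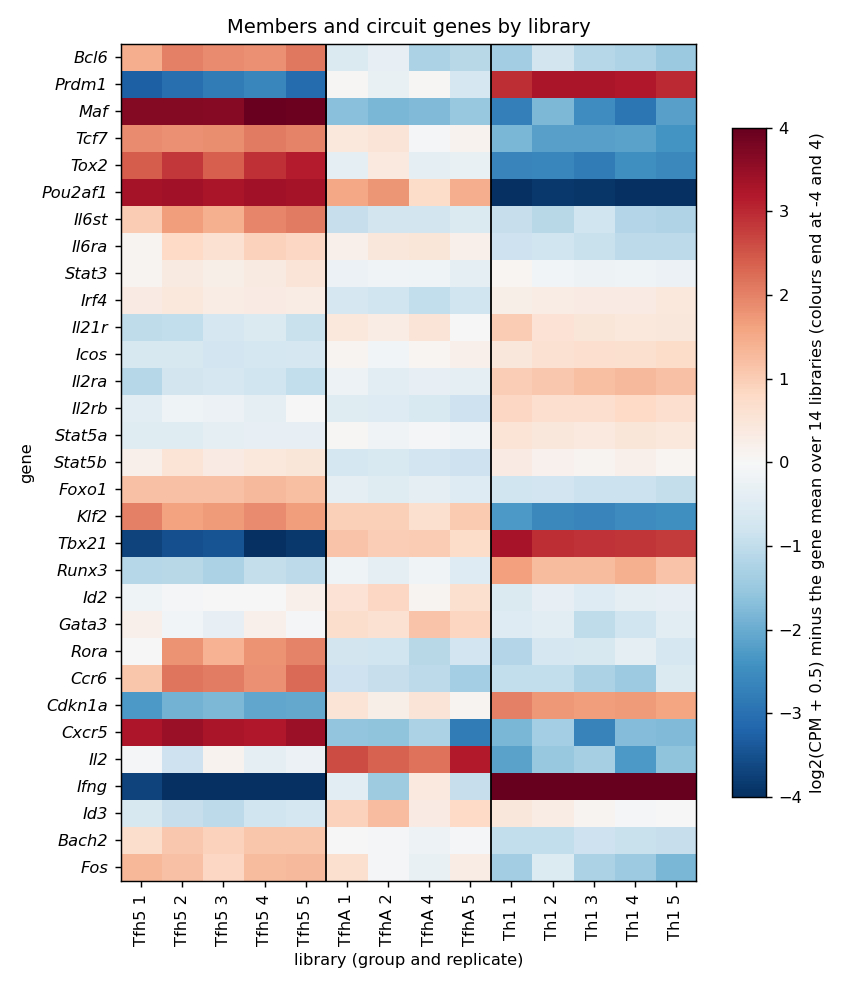
Log2(CPM + 0.5) of the members and of genes reported to act on or under them, centred on each gene's mean over the 14 libraries, with Tfh5, TfhA and Th1 from left to right. Prdm1, Tbx21 and Cdkn1a fall in the order Th1, TfhA and Tfh5, Tcf7, Pou2af1 and Bach2 run the other way, and Bcl6, Maf, Cxcr5 and Il6st stand out in Tfh5.

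Genes reported as repressed by Bcl6 did not move one way with it. Of 17, Prdm1 among them, 8 were higher in Tfh5 than in TfhA, 8 lower and 1 did not pass (median 0.02, against -0.01 over all genes, of which 27.4% were higher and 30.1% lower). The cell cycle inhibitor Cdkn1a was 5.26-fold lower (37 ± 4.64 against 194 ± 29.6 CPM) and Gata3, the Th2 regulator, 1.82-fold. The chemokine receptor Ccr6 was 8.48-fold higher (38.9 ± 10.8 against 4.55 ± 0.782 CPM) and Rora, a factor of Th17 cells, 5.36-fold, although both are on the list of repressed genes. In TfhA against Th1, 4 were higher and 9 lower (median -0.36), where 23.2% of all tested genes were higher and 21.6% lower. In Tfh5 against Th1, 9 were higher and 7 lower (median 0.39), where 31.5% of all tested genes were higher and 33% lower.

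Genes reported as repressed by Blimp-1 also split. Of 15, 12 could be tested, Bcl6 among them. In Tfh5 over TfhA 5 were higher, 6 lower and 1 did not pass (median -0.33), where 57.5% of all tested genes passed. Cxcr5, the follicle-homing receptor, was 40.1-fold higher (79.3 ± 6.65 against 1.95 ± 0.925 CPM), Bach2, itself reported to repress Prdm1, 2.09-fold (812 ± 90.6 against 389 ± 21.8 CPM), and Fos 2.03-fold. Ifng was 20.2-fold lower, Il2 7.66-fold and the E-protein inhibitor Id3 3.25-fold. In TfhA against Th1, with Prdm1 11.1-fold lower, 5 were higher and 5 lower (median 0.28), or 8 higher with no filter on low counts, where Bcl6 is among the genes that pass. Over all tested genes 23.2% were higher and 21.6% lower. Il2 was 24.2-fold higher in TfhA (64.6 ± 20.8 against 2.68 ± 0.877 CPM), Fos 2.94-fold and Bach2 1.81-fold, and Ifng was 36.3-fold lower. Cxcr5 did not pass (1.95 ± 0.925 against 1.77 ± 0.669 CPM, log2 fold change 0.14 ± 0.29). Tfh5 against Th1 gave 6 higher and 6 lower, where 64.6% of all tested genes passed. Several genes stand on more than one of these lists, Tbx21 on 3 of them, so the lists are not independent.

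**Figure D4:**
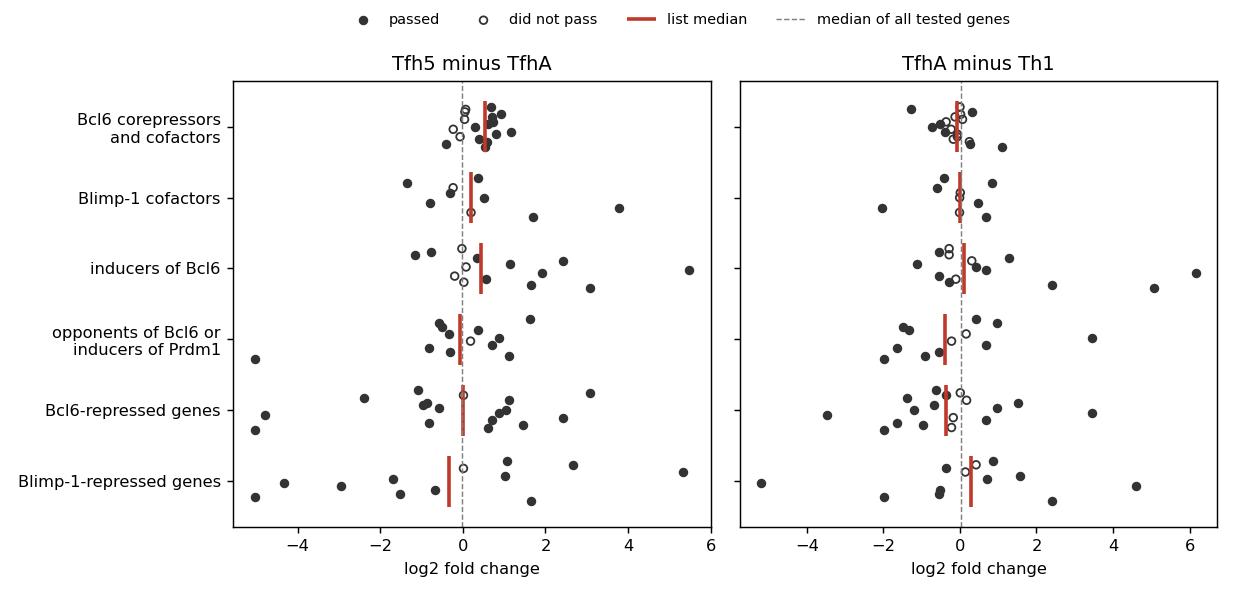
Log2 fold changes of the tested genes of 6 lists around Bcl6 and Prdm1 for Tfh5 minus TfhA (left) and TfhA minus Th1 (right), filled where the gene passed, with the list median in red and the median of all tested genes dashed. The corepressor list has the highest median on the left (0.55), and the lists of repressed genes spread to both sides.

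Among relatives the members held different ranks by group. By mean CPM per kb, Bcl6 ranked 2 of 18 BTB-zinc finger genes in Tfh5, 11 in TfhA and 12 in Th1, and Prdm1 ranked 10 of 15 PRDM genes in Tfh5, 8 in TfhA and 3 in Th1. Of 17 BTB-zinc finger relatives 15 could be tested, and 6 were higher, 2 lower and 7 did not pass in Tfh5 over TfhA (median 0.22, where 57.5% of all tested genes passed, and with 1 lower without TfhA replicate 1, without TfhA replicate 4 or by DESeq2). Zbtb32 was lower at each step, 2.86-fold in Tfh5 than in TfhA and 2.67-fold in TfhA than in Th1 (10.6 ± 1.44, 30.1 ± 7.78 and 80.6 ± 14 CPM in Tfh5, TfhA and Th1). Zbtb20 was 3.12-fold and Zbtb1 1.61-fold higher in Tfh5 than in TfhA, and Zbtb7b, which encodes the CD4-lineage factor ThPOK, did not pass (111 ± 11.3 and 105 ± 24.8 CPM, log2 fold change 0.07 ± 0.14). Bcl6b, the closest relative of Bcl6, had 0, 7 and 7 counts over Tfh5, TfhA and Th1, and Zbtb16 had 10, 0 and 14.

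Of 15 PRDM relatives 10 could be tested, and 3 were higher and 2 lower in Tfh5 than in TfhA (median -0.27, where 57.5% of all tested genes passed), the lower count being 1 without Tfh5 replicate 1. Prdm2 was 1.52-fold higher (167 ± 19.3 against 110.0 ± 5.18 CPM) and Prdm16 2.21-fold lower (5.66 ± 0.915 against 12.5 ± 3.63 CPM). In TfhA against Th1 none was higher and 2 were lower, where 23.2% of all tested genes were higher and 21.6% lower. However, 1 was higher without Tfh5 replicate 1, without Tfh5 replicate 5 or with only TfhA and Th1 in the fit. One of the lower ones was Mecom, with 1 count over Tfh5, 3 over TfhA and 338 over Th1 (edgeR adjusted p = 1.38e-08 for TfhA minus Th1).

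The genes with the profile most like each member over the 14 libraries were taken by Pearson correlation of log2(CPM + 0.5). They were sought among 10009 tested genes with a group mean of at least 5 CPM. Predicted genes, clones, pseudogenes and antigen receptor segments were left out. These values describe likeness across libraries that share 3 group means. On this measure the members themselves had r = -0.879 with each other, closer to 0 than the most opposite gene of either. For Bcl6 they were Fst, which encodes the activin-binding protein follistatin (r = 0.996, 26.5 ± 3.5, 0.644 ± 0.673 and 0.211 ± 0.317 CPM in Tfh5, TfhA and Th1), the transcription factor Sox4 (r = 0.992, 89 ± 23.4, 4.6 ± 0.867 and 2.14 ± 0.585 CPM), the sialidase Neu3 (r = 0.992) and the phosphatase Ssh2 (r = 0.990). Next in rank was Adam12 (r = 0.989, 42.2 ± 2.33, 0.32 ± 0.371 and 0.0291 ± 0.0399 CPM). Unlike Bcl6, Sox4 also passed in TfhA against Th1 (log2 fold change 1.12 ± 0.25, edgeR adjusted p = 0.000654). So did Adam12, at low levels in both groups (log2 fold change 3.28, edgeR adjusted p = 0.00357), whereas Fst, Neu3 and Ssh2 did not. The most opposite was Shroom3, an actin regulator (r = -0.988, 0.0394 ± 0.0541, 5.06 ± 1.11 and 5.97 ± 0.631 CPM). For Prdm1 they were Dcun1d3 (r = 0.996, 16.1 ± 1.55, 37 ± 6.16 and 116 ± 8.75 CPM), the guanylate-binding protein Gbp5 (r = 0.994), Prtg (r = 0.994), the transglutaminase Tgm1 (r = 0.994) and Selp, which encodes P-selectin (r = 0.994, 6.71 ± 1.34, 46.2 ± 8.23 and 318 ± 23.5 CPM). The most opposite was Ext1, an enzyme of heparan sulfate synthesis (r = -0.994, 185 ± 23.2, 61.5 ± 6.09 and 18.4 ± 2.01 CPM).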

How the data were processed

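The authors deposited raw counts per Entrez gene, with no normalization, for 14 libraries made from 100 ng of RNA with a Lexogen SENSE mRNA kit. STAR 2.7.2b, featureCounts 1.6.4 and the build mm10 are named in the submitters' processing notes. Strand setting, annotation and treatment of multi-mapped reads are not stated there. The series table matched the 14 single files in every value and held 0 columns of other samples. Symbols, positions and promoters came from RefSeq GRCm38.p6, with 25275 of 27179 genes matched, and exon lengths from coding transcripts of GENCODE M21. Counts of all libraries entered 1 edgeR 4.0.16 fit (R 4.3.3) with group means, filterByExpr (13075 genes, both members kept), TMM and the two-sided quasi-likelihood test, checked on simulated data. Prdm1 was above the filter in both TfhA and Th1. The threshold was 0.05 after Benjamini-Hochberg adjustment across the 13075 genes. SE is the log2 fold change divided by the square root of F. Replicates differed by more than counting error (chi-square per degree of freedom 4.15 to 30.6 over 26 pairs within groups). Alternatives were DESeq2 1.42.0, its size factors, no filter, a replicate block, 2-group fits, removal of mitochondrial genes and omission of each library. The members and lists were chosen with earlier results of these data known. Named genes are the members, the largest called and most abundant uncalled genes of each list, a fixed panel, and the genes most like each member, and of these a part is printed. Some members of the lists are not reported here by name.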

Additional observations from a re-analysis of the deposited data

Results flagged for a closer look

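In 194 sets of 4 or 5 libraries of one group, covering the members, their ratio and the genes named above, 14 held a library set apart from the rest by Dixon's criterion, where chance gives about 1 in 20. Neither Bcl6 nor Prdm1 by itself did so in any group. Their log2 ratio was set apart in Th1, at -1.43 in replicate 2 against -1.88 to -1.76 in the other libraries, which is the library with the most Bcl6 of that group. Single libraries were high for Tbx21 in Th1 (305.5 CPM), Foxo1 in Tfh5 (675.3 CPM), Tox2 in TfhA (4.09 CPM), Irf4 in Tfh5 (2346 CPM), Il21r in Th1 (390.7 CPM), Tle1 in TfhA (3.48 CPM), Mecom in Tfh5 (0.102 CPM, a single count) and Fst in Th1 (0.763 CPM). Single libraries were low for Ncor1 in Tfh5 (562.4 CPM against 824.7 to 891.8 CPM), Sin3a in Tfh5 (48.8 CPM), Bach2 in TfhA (357.1 CPM), Zbtb32 in TfhA (18.5 CPM) and Zbtb1 in Th1 (92.7 CPM).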

How the results depend on the processing

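The called changes of Bcl6 in Tfh5 against TfhA (log2 fold change 2.54 to 2.86) and Th1 (3.02 to 3.24), and those of Prdm1 in Tfh5 against TfhA (-5.23 to -4.49), TfhA against Th1 (-3.58 to -3.34) and Tfh5 against Th1 (-8.70 to -7.96), kept their call in all 20 alternatives each, as did the Bcl6 difference of steps (1.98 to 2.62) in 19. Bcl6 in TfhA against Th1 passed with no filter on low counts (0.39, adjusted p = 0.0392), with the replicate block (0.42, adjusted p = 0.0449) and without 4 single libraries, over a range of 0.24 to 0.56 as each library was left out. The Prdm1 difference of steps lost its call with DESeq2 size factors (-1.30), no filter (-1.26), the replicate block (-1.36), mitochondrial genes removed (-1.28) and the DESeq2 Wald test (-1.40), and ranged from -1.76 to -1.02 as each library was left out. The cause was not tested. The median log2 ratio in Tfh5 was 5.62 with 2 CPM added in place of 0.5, since Prdm1 is near 0 there. Among uncalled genes, Zbtb7b in Tfh5 against TfhA changed sign without TfhA replicate 5 (range -0.051 to 0.22 as each library was left out), and Cxcr5 in TfhA against Th1 without Th1 replicate 3 (-0.044) or TfhA replicate 4 (-0.044), within -0.044 to 0.40 as each was left out. Whether replicate numbers pair the samples is not stated in the labels. Deviations of same-numbered libraries correlated at -0.048 to 0.155, over 0.1 in 1 of 13 pairs. Libraries of other numbers in different groups correlated at -0.368 to 0.327, and 5 of 14 libraries correlated best with their own number. Low correlations cannot show that the samples were unpaired. The replicate block changed no other call of the members. Depth limits Prdm1 in Tfh5, at 7 counts.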
